A study of Mus musculus with 14 samples.

Results

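The 44 replication-dependent histone genes described here are the rows of the count table whose symbol starts with Hist1h, Hist2h, Hist3h or Hist4h and that held at least 10 counts in 3 or more of the 14 libraries. They are 44 of the 63 rows with such a symbol and of the 24833 genes in the table. By histone type they comprise 5 H1, 10 H2A, 13 H2B, 8 H3 and 8 H4 genes. The H2B row Hist3h2bb-ps is annotated as a processed pseudogene and is a member by the symbol rule. The other 19 rows missed the count rule, with no single count over 20 and no total over 78. Members just inside the rule held 10 counts in 3 libraries, and rows just outside held them in 2.

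RNA was sequenced from mouse bone marrow cells enriched for hematopoietic stem cells by the gate LSK/Flk2-/CD48-/CD150+, called SLAM cells. The C57BL/6 mice were injected intraperitoneally every day, either with 0.5 µg of interleukin-1β (IL-1β), a cytokine released in inflammation, or with phosphate-buffered saline (PBS). The groups were IL-1β for 1 day (3 libraries) and PBS for 1 day (3 libraries), then IL-1β for 20 days (4 libraries) and PBS for 20 days (4 libraries). The labels name no transgene or deletion in any group, and each library is a pool of 3 to 5 mice.

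Replication-dependent histone genes are transcribed in S phase, when new nucleosomes are needed to package replicated DNA. H2A, H2B, H3 and H4 form the nucleosome core and H1 binds the linker DNA between cores. The transcripts are unusual in that most end in a conserved stem-loop bound by SLBP rather than in a poly(A) tail, although some of these genes also yield polyadenylated forms. The cDNA kit named in the labels, SMARTer Ultra Low, primes on poly(A), so the counts here describe the forms of these transcripts that such a primer reaches and do not measure the whole histone mRNA pool.

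The stem-loops carried by the members are printed because this 3′ end sets the family apart from other mRNAs. In 31 of the 44 members the annotated transcript (GENCODE, GRCm38) held the motif of 16 bases, searched on the transcript strand as GG, then 3 pyrimidines, T, any 4 bases, A, 3 purines and CC. Capitals mark the stem and lower case marks the loop. The first form below was found in 17 members (3 H1, 5 H2A, 6 H2B and 3 H3 genes), among them Hist1h1c, Hist1h2ae and Hist1h2bg. The second form was found in 5 members, all of them H4 genes including Hist1h4d, and the third in 2 H4 genes including Hist1h4i. The fourth was found in 5 members, 2 of them H2B and 3 of them H3 genes including Hist1h3c. The remaining forms occurred once each, in Hist1h3g and in Hist2h2ac.
Hist1h1c: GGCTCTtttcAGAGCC
Hist1h4d: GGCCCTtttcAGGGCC
Hist1h4i: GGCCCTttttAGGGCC
Hist1h3c: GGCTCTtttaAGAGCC
Hist1h3g: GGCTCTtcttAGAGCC
Hist2h2ac: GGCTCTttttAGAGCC

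The promoters of the 3 members that passed the test at 1 day follow, since they moved in different directions. They are taken from RefSeq on GRCm38.p6 and all lie on chromosome 13. The windows are the 250 bases before the start of Hist1h1c (chr13:23738557-23738806, plus strand), the 250 bases before the start of Hist1h4i (chr13:22041363-22041612, minus strand) and the 175 bases between the GENCODE starts of Hist1h2ae and Hist1h2bg (chr13:23571221-23571395, printed on the plus strand, on which Hist1h2bg is transcribed). Capitals mark matches to CCAAT (the box that NF-Y binds), to TATAAA (the TATA box), to ATTTGCAT (the octamer of H2B promoters) and to AAACACA (the H1 box), searched on both strands, where no match overlapped another. A match is one of letters only, and its distance from the start was not weighed. The TATAAA match of Hist1h4i lies near the middle of its window, away from the start.
Hist1h1c: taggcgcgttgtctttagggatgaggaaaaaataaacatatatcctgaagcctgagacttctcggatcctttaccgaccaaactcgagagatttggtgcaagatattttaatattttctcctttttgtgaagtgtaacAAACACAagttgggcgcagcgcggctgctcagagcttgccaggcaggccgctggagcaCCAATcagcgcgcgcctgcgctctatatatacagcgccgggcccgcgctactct
Hist1h4i: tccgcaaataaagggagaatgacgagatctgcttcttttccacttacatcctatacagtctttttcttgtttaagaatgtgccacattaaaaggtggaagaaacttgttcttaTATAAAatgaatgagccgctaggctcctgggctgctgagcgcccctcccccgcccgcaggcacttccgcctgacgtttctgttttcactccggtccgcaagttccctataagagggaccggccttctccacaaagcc
Hist1h2ae to Hist1h2bg: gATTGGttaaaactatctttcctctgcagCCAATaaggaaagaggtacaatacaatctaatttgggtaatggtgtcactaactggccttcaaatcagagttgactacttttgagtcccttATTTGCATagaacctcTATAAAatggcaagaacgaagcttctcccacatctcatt

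Of the 44 members, 38 had a RefSeq promoter, taken as 250 bases before to 50 bases after the start. CCAAT was present in 86.8% of the 38 member promoters, against 37.4% of all 32851 RefSeq promoters of that length, and was in each of the H1, H2A, H2B and H3 promoters but in 2 of the 7 H4 promoters. TATAAA was present in 63.2% of member promoters, against 13.6% of all. ATTTGCAT was present in 26.3% of member promoters, against 1.74% of all, and the matches were in 5 of 10 H2A and 5 of 10 H2B promoters. AAACACA was present in 15.8% of member promoters, against 7.18% of all, and in 4 of the 5 H1 promoters. An E2F site, searched as TTTGGCGC or as TTTCGCGC on both strands, was present in 15.8% of member promoters, against 0.813% of all. The matches are a description of these windows.

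Most members lie in the Hist1 cluster on chromosome 13, which holds 37 of them, while 3 are on chromosome 3, 3 on chromosome 11 and 1 on chromosome 6. Levels are in CPM, in which counts are scaled by library size. For single genes that size is the total corrected by trimmed-mean-of-M-values (TMM) factors, and for sums it is the total itself. Mean levels ran from 0.279 to 45.6 CPM with a median of 1.57 CPM. Only 12 members averaged 5 CPM or more, and 17 averaged under 1 CPM. Per kilobase of exon, the highest mean level was that of Hist1h1c at 29.2 CPM, followed by Hist1h4d at 25.1 CPM and Hist1h2bc at 21.7 CPM. Many members share sequence with other genes: between 0% and 88.4% of a member's 100-base windows (the read length) were also found in another gene, with a median of 30.3%. Both strands were searched, and the other gene could lie outside the family or overlap the member. For Hist3h2a (29.8%) the windows were shared only with Trim17 and Gm44313, which overlap it. In 12 members at least 50% of windows were shared, so their counts are uncertain between copies. The shared percentage was 5.07% for Hist1h1c, 44.9% for Hist1h2bg, 15.1% for Hist1h4i and 0% for Hist1h4d.

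Library totals were 21654896 to 29441947 counts, and the members together took 4168 to 8021 counts or 186 to 294 CPM. By a tag in the title, the libraries form 4 naming sets in which IL-1β and PBS are balanced. At 1 day replicate 3 of both groups is in the set 10k and the others are in E060216. At 20 days replicates 1 and 2 of both groups are in E061316, while 3 and 4 have no tag. What the tags stand for is not stated. The summed members reached 239 to 294 CPM in the 6 libraries of the 10k and untagged sets, and 186 to 233 CPM in the 8 others, without overlap, and the naming set is a term of the test. The gate's positive markers Kit, Ly6a and Slamf1 were detected in all libraries, and Slamf1 together with Flt3 and Cd48, whose products are absent in the gate, rose at 20 days (3 of 5 sort markers). The summed level of 13 neutrophil markers was 2461 CPM in IL-1β 20-day replicate 3 and 1.99 to 14.9 CPM in the 13 other libraries. The part of these differences in the results below was not tested.

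At 1 day the members were mostly higher with IL-1β, but few passed the test and those that did went both ways. The linker histone gene Hist1h1c and the H2B gene Hist1h2bg fell, and the H4 gene Hist1h4i rose. These 3 are 6.82% of the 44 members, against 4.35% of all 15466 genes tested by edgeR's quasi-likelihood test at an adjusted p of 0.05 (2.52% higher and 1.83% lower). The members' median log2 fold change was 0.57, with 35 positive and 9 negative values, while the median over all genes tested was -0.01. The 12 members that averaged 5 CPM or more had a median of 0.32, with 8 positive values, and the 32 members under 5 CPM had a median of 0.71, with 27 positive values. By shared sequence the median was 0.98 in the 12 members with at least 50% of windows shared and 0.32 in the 12 members with under 10% shared. At an unadjusted p under 0.05 there were 13 members, 11 higher and 2 lower. Over all 15466 genes tested there were 2900, with 1461 higher and 1439 lower. In 12 members every IL-1β library was above every PBS library, where this held for 8.77% of all genes, and in 3 members (Hist1h2bg, Hist2h4 and Hist4h4) every IL-1β library was below, where this held for 8.9% of all genes. Of the members with IL-1β wholly above, Hist1h2an reached 10 counts in IL-1β libraries only (16, 21 and 10 counts). Hist1h2ad reached 10 counts in several IL-1β libraries but among PBS libraries only in 20-day replicate 4 (16 counts). Both genes met the count rule mainly through IL-1β libraries, and they add to the positive values and medians given here. In a fit without the naming set term, Hist1h1c, Hist1h2bg and Hist1h4i were not called. In bulk samples, a different number of cells in S phase and a different amount of histone mRNA per cell cannot be told apart. The labels make the replicates separate pools of mice, so the p-values measure the spread between pools.

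**Figure D1:**
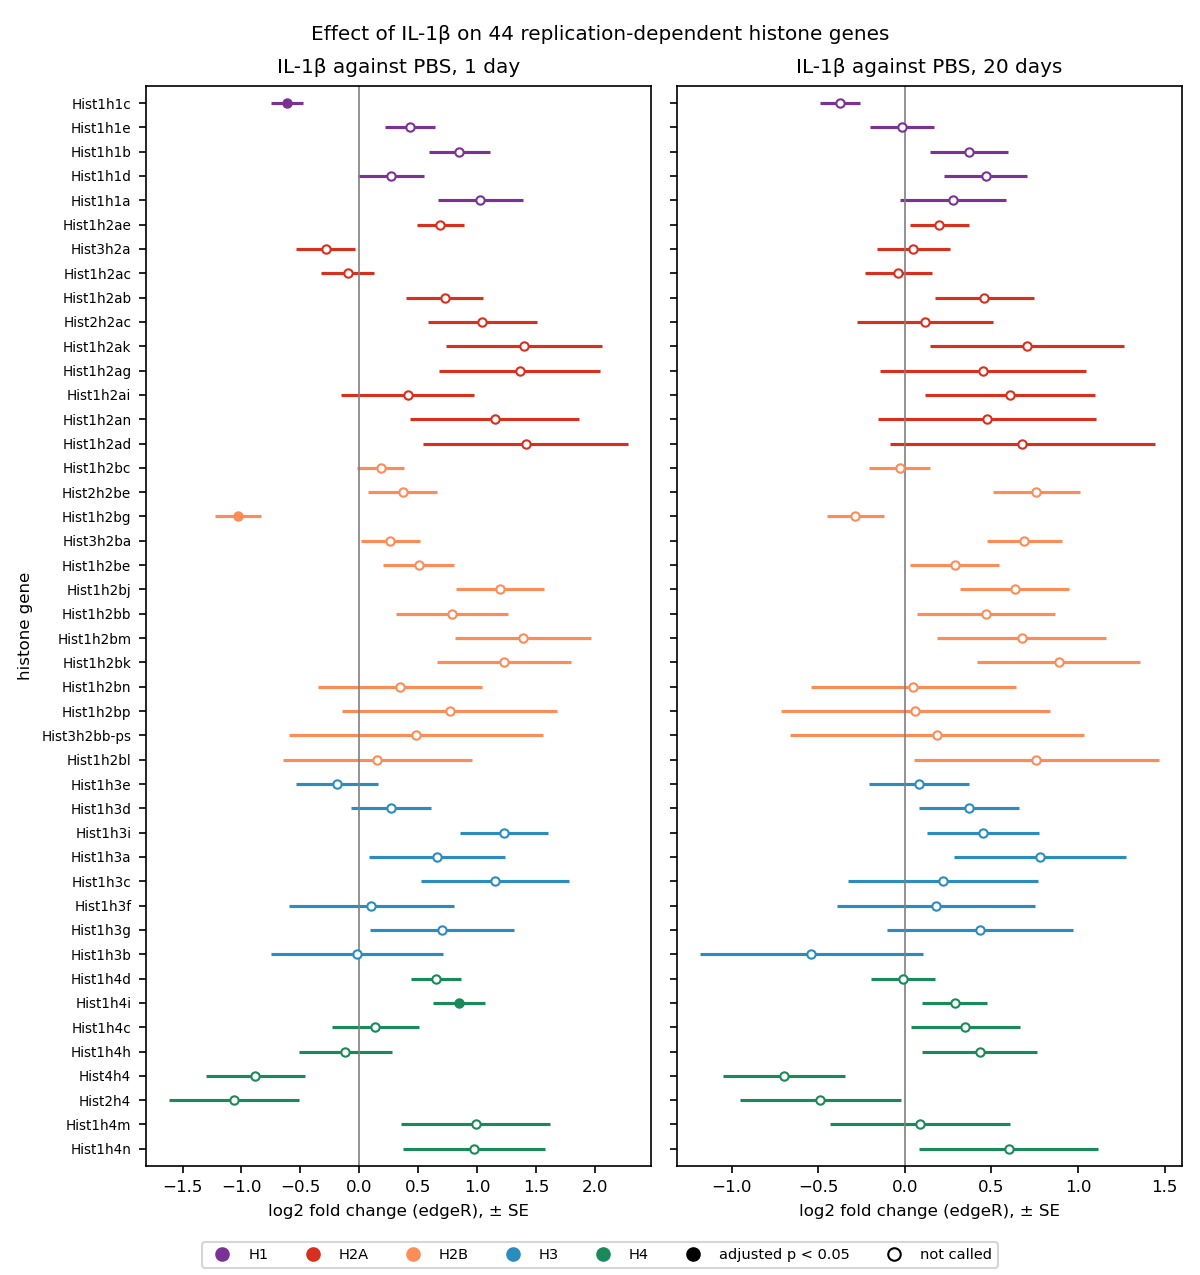
Log2 fold change of IL-1β against PBS for each of the 44 histone genes (rows, coloured by type and ordered by mean level within it) at 1 day (left) and 20 days (right), with bars of 1 standard error from edgeR. Filled points passed an adjusted p of 0.05: Hist1h1c and Hist1h2bg lower and Hist1h4i higher at 1 day, none at 20 days.

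Among the H1 genes, Hist1h1c stood at 26.6, 33.2 and 48.5 CPM in IL-1β 1-day libraries 1 to 3, against 42.8, 47.9 and 76.2 CPM in PBS 1-day libraries 1 to 3. Its log2 fold change was -0.62 ± 0.14 (SE; adjusted p = 0.0175, edgeR), a level 1.53-fold lower with IL-1β. The groups overlapped because the 10k pair was higher in both, but within each naming set every IL-1β library was below every PBS library. At 20 days Hist1h1c stood at 38.9, 30.1, 46.0 and 42.5 CPM in IL-1β libraries 1 to 4, against 39.4, 46.6, 53.7 and 65.7 CPM in PBS libraries 1 to 4. The 20-day log2 fold change was -0.37 ± 0.12 (SE; adjusted p = 0.068, edgeR), which did not pass the test, although each naming set again had its IL-1β libraries below its PBS libraries. The call at 1 day was lost when IL-1β replicate 1 or 3 or PBS replicate 2 or 3 was left out. It was also lost without both 10k libraries, an alternative added after seeing the data. Over these fits the adjusted p reached 0.144 (edgeR).

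The other 4 H1 genes had positive values at 1 day. Hist1h1e stood at 16.9, 14.3 and 18.8 CPM in IL-1β libraries against 11.9, 10.7 and 14.6 CPM in PBS libraries at 1 day, groups that overlapped, with a log2 fold change of 0.43 (adjusted p = 0.305, edgeR). At 20 days Hist1h1e stood at 13.4, 12.0, 16.1 and 13.1 CPM in IL-1β libraries against 8.61, 14.6, 12.5 and 20.1 CPM in PBS libraries, which also overlapped. It shares its strand and part of its span with Hist1h2be, so counts of the pair may be split between them. Hist1h1b and Hist1h1a, named after their values were seen, had 1-day log2 fold changes of 0.85 (adjusted p = 0.0846, edgeR) and 1.03 (adjusted p = 0.132, edgeR). The makeup of the H1 counts therefore differed: Hist1h1c supplied 45.1%, 54.0% and 52.3% of them in IL-1β 1-day libraries, against 67.8%, 71.8% and 69.7% in PBS 1-day libraries. At 20 days Hist1h1c supplied 58.0%, 54.7%, 57.4% and 59.5% in IL-1β libraries, against 71.4%, 66.2%, 67.5% and 62.3% in PBS libraries. The groups did not overlap at either duration, and the widest 95% Wilson interval of a library's share, which covers counting error only, was ± 2.54 percentage points. This ratio within a library shows unequal change of Hist1h1c and the other H1 genes, and does not depend on the scaling between libraries. Hist1h1c was called at 1 day from these same counts, so the 1-day separation of its share is not a separate result. The H1 genes other than Hist1h1c summed to 34.0 ± 8.64 CPM in IL-1β libraries and 23.9 ± 6.90 CPM in PBS libraries at 1 day (SD, n = 3 each).

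Among the H2A genes, none passed the test at either duration, and the median log2 fold change was 0.88 at 1 day and 0.45 at 20 days, with 8 and 9 of 10 values positive. Hist1h2ad and Hist1h2an, which met the count rule mainly through IL-1β libraries, are among the positive values at both durations. Their 1-day log2 fold changes were 1.41 and 1.14. Each of the 10 H2A genes overlaps a gene that GENCODE places on the other strand, which no member of another type does. Because the library chemistry does not mark strand, H2A counts may have been lost or split, which was not tested. Hist1h2ae stood at 13.1, 12.8 and 16.9 CPM in IL-1β libraries against 7.08, 6.42 and 14.7 CPM in PBS libraries at 1 day, with a log2 fold change of 0.69 ± 0.20 (SE; adjusted p = 0.0712, edgeR). PBS replicate 3, of the 10k set, was the one that overlapped the IL-1β libraries. Without both 10k libraries, an alternative added after seeing the data, its log2 fold change was 0.94 (adjusted p = 0.0378, edgeR). At 20 days Hist1h2ae stood at 10.7, 13.7, 14.5 and 10.9 CPM in IL-1β libraries against 8.61, 10.9, 11.1 and 12.98 CPM in PBS libraries, with overlapping groups. Hist3h2a, an H2A gene outside the chromosome 13 cluster that overlaps Trim17, stood at 5.02, 7.34 and 7.93 CPM in IL-1β libraries against 8.95, 8.08 and 7.60 CPM in PBS libraries at 1 day. At 20 days it stood at 9.58, 6.72, 14.2 and 9.55 CPM in IL-1β libraries against 10.8, 7.12, 10.6 and 9.61 CPM in PBS libraries. Neither difference of Hist3h2a passed the test, and its groups overlapped at both durations.

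Among the H2B genes, Hist1h2bg stood at 4.22, 6.76 and 7.01 CPM in IL-1β 1-day libraries, against 10.9, 13.9 and 11.7 CPM in PBS 1-day libraries. The groups were apart, and the log2 fold change was -1.03 ± 0.20 (SE; adjusted p = 0.00728, edgeR), a level 2.04-fold lower with IL-1β. At 20 days Hist1h2bg stood at 8.18, 8.77, 17.1 and 18.5 CPM in IL-1β libraries, against 11.6, 11.4, 19.4 and 19.8 CPM in PBS libraries. Within each 20-day naming set the IL-1β libraries were the lower ones, but the log2 fold change of -0.29 did not pass the test (adjusted p = 0.359, edgeR). Leaving out IL-1β 1-day replicate 1, or PBS 1-day replicate 2, ended the call, with an adjusted p of up to 0.0538. Hist1h2bg supplied 7.88%, 9.69% and 9.18% of the H2B counts in IL-1β 1-day libraries, against 21.8%, 24.5% and 15.6% in PBS 1-day libraries, each with a 95% Wilson interval no wider than ± 2.28 percentage points. The 1-day call rests on these same counts, so the separation of this share is not a separate result. At 20 days this share was 11.5%, 12.6%, 23.2% and 21.4% in IL-1β libraries against 19.6%, 21.8%, 27.1% and 25.7% in PBS libraries, and overlapped.

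The other 12 H2B genes all had positive values at 1 day, and the median of the 13 was 0.48 at 1 day and 0.47 at 20 days. Hist1h2bc, the H2B gene with the highest level per kilobase, stood at 21.1, 25.7 and 36.3 CPM in IL-1β libraries against 19.0, 20.8 and 34.5 CPM in PBS libraries at 1 day, with overlapping groups. At 20 days it stood at 24.9, 24.9, 20.2 and 25.0 CPM in IL-1β libraries against 20.3, 18.3, 23.7 and 37.0 CPM in PBS libraries, also overlapping. Hist2h2be, on chromosome 3, stood at 16.4, 23.3 and 13.7 CPM in IL-1β libraries against 11.5, 13.7 and 16.0 CPM in PBS libraries at 1 day. Its 20-day values were 21.5, 21.0, 15.1 and 23.4 CPM in IL-1β libraries against 16.4, 12.0, 14.1 and 5.94 CPM in PBS libraries, with a log2 fold change of 0.76 (adjusted p = 0.0865, edgeR). Only IL-1β replicate 3 and PBS replicate 1 kept these 20-day groups from separating. Hist3h2ba, named after its values were seen, had a 20-day log2 fold change of 0.69 (adjusted p = 0.0718, edgeR).

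The H3 genes had a summed level of 12.0 ± 4.48 CPM in IL-1β libraries and 8.37 ± 1.25 CPM in PBS libraries at 1 day (SD, n = 3 each). None passed the test. Hist1h3e stood at 1.73, 1.28 and 2.92 CPM in IL-1β libraries against 2.35, 2.13 and 1.97 CPM in PBS libraries at 1 day, and at 2.62, 2.70, 6.24 and 3.40 CPM in IL-1β libraries against 2.74, 2.32, 3.79 and 5.29 CPM in PBS libraries at 20 days. Hist1h3d stood at 1.73, 2.23 and 2.41 CPM in IL-1β libraries against 2.03, 1.62 and 1.63 CPM in PBS libraries at 1 day, and at 3.41, 3.06, 3.51 and 2.27 CPM in IL-1β libraries against 2.29, 1.72, 2.50 and 3.06 CPM in PBS libraries at 20 days. Both genes overlapped between groups at both durations. Hist1h3i, named after its values were seen, had the largest 1-day log2 fold change of the type at 1.23 (adjusted p = 0.0797, edgeR). The median of the 8 H3 genes was 0.46 at 1 day and 0.30 at 20 days.

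Among the H4 genes, Hist1h4i stood at 13.4, 13.03 and 14.3 CPM in IL-1β 1-day libraries, against 7.72, 5.58 and 9.71 CPM in PBS 1-day libraries. The groups were apart, and the log2 fold change was 0.84 ± 0.22 (SE; adjusted p = 0.0415, edgeR), a level 1.80-fold higher with IL-1β. This call was close to the threshold and was lost in 10 of the 14 fits that left out 1 library, including each 1-day library. It was also lost without both 10k libraries, an alternative added after seeing the data. Over these fits the adjusted p reached 0.206 (edgeR). At 20 days Hist1h4i stood at 8.69, 10.7, 10.2 and 8.65 CPM in IL-1β libraries against 7.68, 7.12, 6.19 and 10.4 CPM in PBS libraries, where the highest PBS library overlapped. Hist1h4d, the H4 gene with the highest level per kilobase and no window shared with another gene, stood at 43.3, 37.8 and 42.9 CPM in IL-1β libraries against 28.9, 20.3 and 30.5 CPM in PBS libraries at 1 day. Its groups were apart at 1 day, yet its log2 fold change of 0.64 ± 0.21 (SE) did not pass the test (adjusted p = 0.105, edgeR). At 20 days Hist1h4d stood at 33.1, 28.7, 20.4 and 16.7 CPM in IL-1β libraries against 19.5, 27.0, 22.0 and 28.1 CPM in PBS libraries. Its 20-day direction differed between naming sets, with a log2 fold change of 0.41 in E061316 and -0.43 in the untagged set. Hist2h4 and Hist4h4, H4 genes outside the chromosome 13 cluster named after their values were seen, were lower in every IL-1β library than in any PBS library at 1 day. Their log2 fold changes were -1.06 for Hist2h4 (adjusted p = 0.327, edgeR) and -0.88 for Hist4h4 (adjusted p = 0.274, edgeR).

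**Figure D2:**
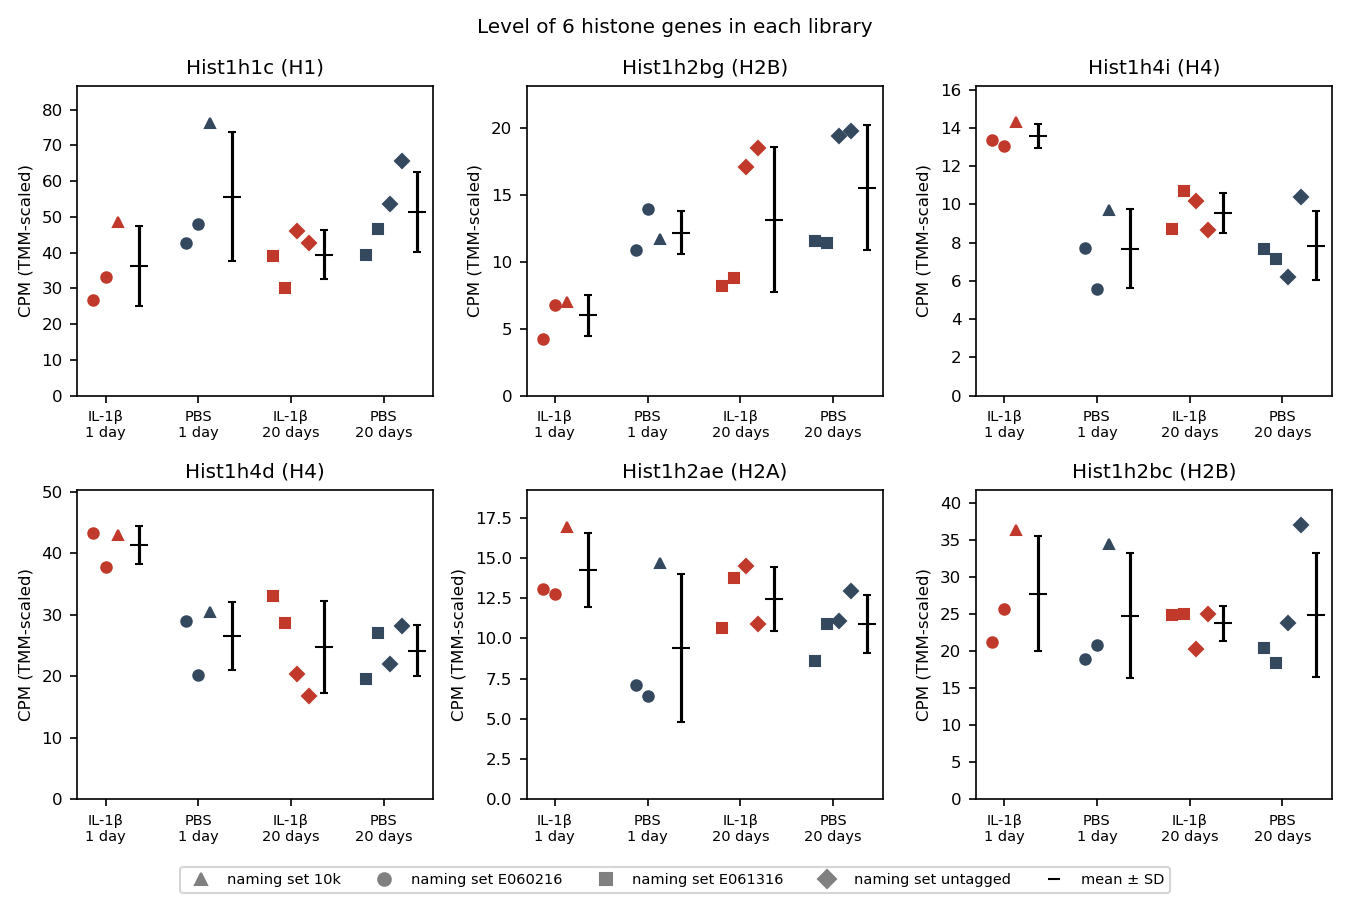
TMM-scaled CPM of 6 histone genes in each of the 14 libraries, with IL-1β in red, PBS in dark blue, marker shape for the naming set, and bars for the group mean ± SD. Hist1h2bg, Hist1h4i and Hist1h4d separate the 1-day groups, and Hist1h1c is lower in IL-1β within each naming set at both durations.

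Summed over types, the 1-day ratio of IL-1β to PBS mean levels was 0.874 for H1, 1.25 for H2A, 1.07 for H2B, 1.44 for H3 and 1.44 for H4. The 20-day ratio was 0.889 for H1, 1.105 for H2A, 1.16 for H2B, 1.21 for H3 and 1.06 for H4. The median log2 fold change of single genes was 0.43 for H1 and 0.39 for H4 at 1 day, and 0.28 for H1 and 0.19 for H4 at 20 days. The H4 sums were 59.3, 53.7 and 64.5 CPM in IL-1β 1-day libraries, against 44.6, 32.4 and 46.1 CPM in PBS 1-day libraries, and did not overlap. Hist1h4d and Hist1h4i made up 90.0% ± 2.04 of the H4 counts in IL-1β libraries and 82.9% ± 2.07 in PBS libraries at 1 day (SD, n = 3 each), so the H4 sum is largely the sum of these genes. All members together summed to 238 ± 45.6 CPM in IL-1β libraries and 215 ± 42.4 CPM in PBS libraries at 1 day (SD, n = 3 each). That difference was smaller than the SD over libraries, which includes the difference between naming sets. Within each 1-day naming set every IL-1β library was above every PBS library, with a ratio of mean levels of 1.097 in 10k and 1.11 in E060216. No test was run on this sum.

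**Figure D3:**
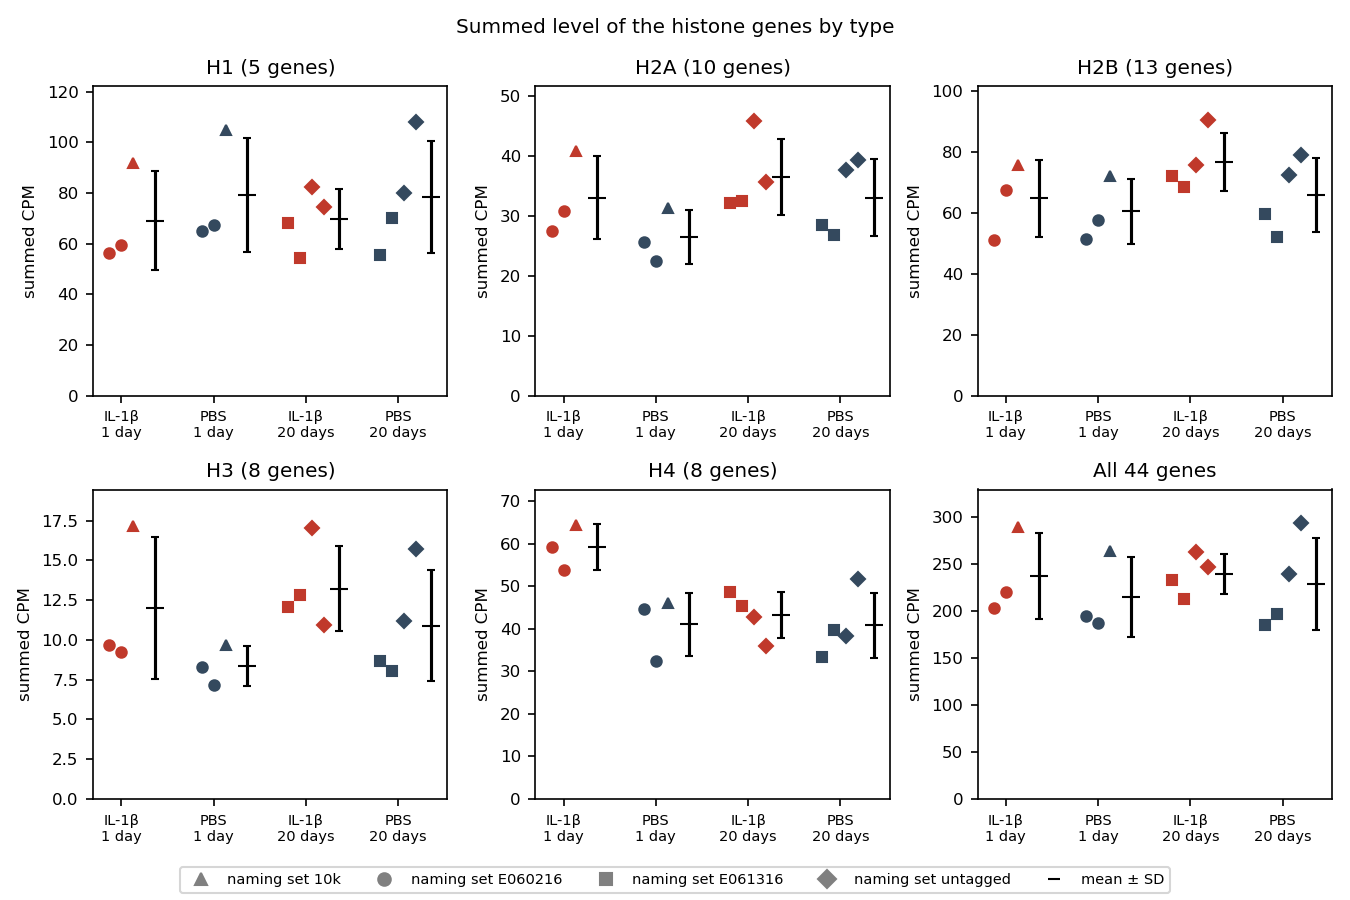
Summed CPM of the members of each histone type, and of all 44, in each library, with IL-1β in red, PBS in dark blue, marker shape for the naming set, and bars for the group mean ± SD. H4 separates the 1-day groups, and the sum of all members follows the naming sets, with the 10k and untagged libraries at 239 to 294 CPM.

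At 20 days none of the 44 members passed edgeR's test, against 7.46% of all 15466 genes (3.94% higher and 3.52% lower). At an unadjusted p under 0.05 there were 3 members, against 3160 of all 15466 genes, a smaller share of the members than of all genes. Hist2h2be and Hist3h2ba were higher and Hist1h1c lower, and DESeq2 called the same 3. The median log2 fold change was 0.32, with 35 positive and 9 negative values, beside a median over all genes that rounds to -0.00. Hist1h2ad and Hist1h2an, which met the count rule mainly through IL-1β libraries, are among the positive values. The 12 members at 5 CPM or more had a median of 0.02, with 6 positive and 6 negative values, and the 32 members under 5 CPM had a median of 0.43, with 29 positive values. Groups were apart in 2 members, Hist1h2bj and Hist1h2bk, both higher with IL-1β, where 5.39% of all genes were so. These are given by library because their groups were apart, a choice made after their values were seen. Hist1h2bj stood at 1.72, 2.23, 2.25 and 2.15 CPM in IL-1β libraries against 0.971, 1.28, 1.49 and 1.70 CPM in PBS libraries, with a log2 fold change of 0.63 (adjusted p = 0.278, edgeR). Hist1h2bk stood at 1.08, 0.827, 1.08 and 1.41 CPM in IL-1β libraries against 0.441, 0.640, 0.744 and 0.524 CPM in PBS libraries, with a log2 fold change of 0.89 (adjusted p = 0.311, edgeR). The 20-day median differed between naming sets: it was 0.56 in E061316 and 0.04 in the untagged set, where IL-1β replicate 3 carried the neutrophil transcripts. The medians at 1 day were 0.56 in 10k and 0.55 in E060216.

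The difference between the 20-day and the 1-day effect was tested as an interaction, and none of the 44 members passed, against 2.14% of all genes (1.15% with a higher and 0.989% with a lower effect at 20 days). At an unadjusted p under 0.05 there were 2 members, against 2842 of all 15466 genes. Hist1h2bg was less low at 20 days by 0.75 ± 0.25 on the log2 scale (SE; adjusted p = 0.135, edgeR), and the effect on Hist1h4d was lower at 20 days by 0.65 ± 0.28 (log2 difference -0.65; SE; adjusted p = 0.23, edgeR). The median difference over the members was -0.29, with 27 negative and 17 positive values.

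H2A and H2B genes often lie head to head and share the stretch between their starts. In 8 such pairs, with starts at most 500 bases apart, both genes are members. The H2B row of 1 pair, Hist3h2bb-ps beside Hist3h2a, is annotated as a processed pseudogene. Both genes had positive values in 5 of the 8 pairs at 1 day and in 6 at 20 days, and the signs were opposite in 3 pairs at 1 day and in 1 at 20 days. Among the positive pairs at both durations is that of Hist1h2an, which met the count rule through IL-1β libraries only. Hist1h2ae and Hist1h2bg, whose shared 175 bases are printed above, were the most unlike pair at 1 day, with log2 fold changes of 0.69 and -1.03. The count ratio of Hist1h2bg to Hist1h2ae was 0.323, 0.529 and 0.415 in IL-1β 1-day libraries, against 1.54, 2.17 and 0.797 in PBS 1-day libraries, and did not overlap. The pair was picked by these same 1-day values, so the separation of the ratio is not a separate result. At 20 days this ratio was 0.768, 0.639, 1.18 and 1.70 in IL-1β libraries against 1.34, 1.05, 1.75 and 1.53 in PBS libraries, and overlapped.

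**Figure D4:**
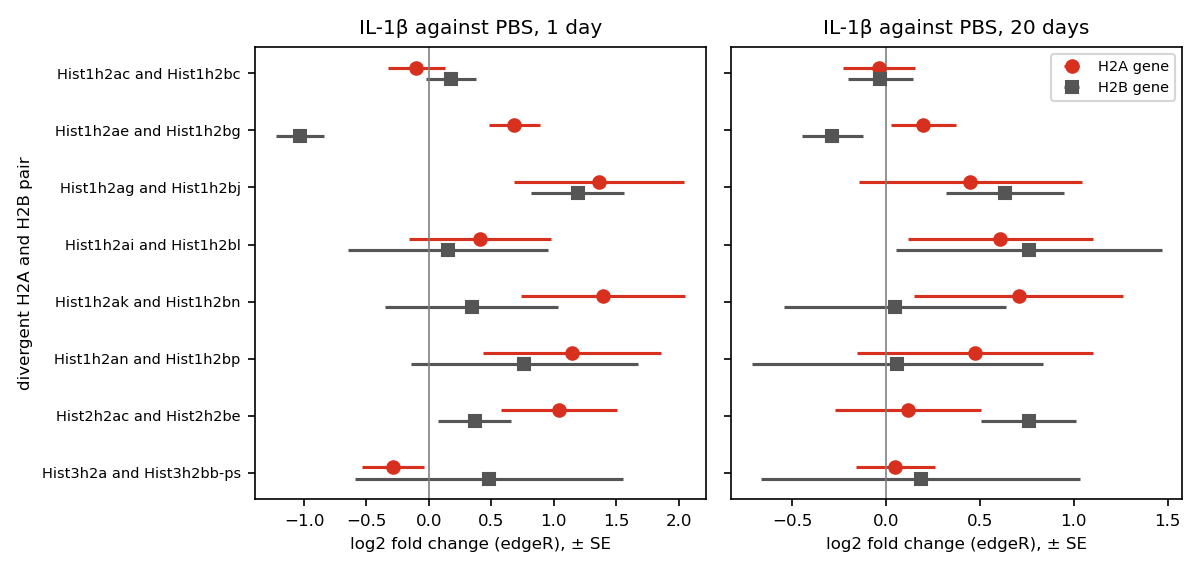
Log2 fold change of IL-1β against PBS for the H2A gene (circles) and the H2B gene (squares) of 8 divergent pairs at 1 day (left) and 20 days (right), with bars of 1 standard error from edgeR. Hist1h2ae and Hist1h2bg lie on opposite sides of zero at both durations, at 0.69 and -1.03 at 1 day.

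The annotated transcripts differ in how far they run on past the stem-loop. In 16 members under 100 bases followed it, in 15 members 100 bases or more followed, and 13 members had no match. A missing match does not show that a gene lacks the stem-loop, since the annotated transcript may stop before it. The 13 ran from 381 exonic bases (Hist1h2bl and Hist1h2bn) to 2863 (Hist4h4). The 16 members with a short end had a median log2 fold change of 0.98 at 1 day, with 14 positive values, and 0.45 at 20 days, with 15 positive values. They include Hist1h2ad, which met the count rule mainly through IL-1β libraries. The 15 members with a long end had a median of 0.26 at 1 day and 0.18 at 20 days, with 10 positive values each time, and they include Hist1h1c, Hist1h2bg and Hist1h4i, whose transcripts run on for 840, 155 and 330 bases. The 13 members without a match had medians of 0.41 at 1 day and 0.37 at 20 days. They include Hist1h2an, which met the count rule through IL-1β libraries only. No member with a short end passed the test, and all 16 averaged under 5 CPM. Among members under 5 CPM, the 7 with a long end had medians of 0.13 at 1 day and 0.29 at 20 days. The short-end members summed to 15.1, 14.5 and 27.0 CPM in IL-1β 1-day libraries against 9.19, 9.20 and 14.04 CPM in PBS 1-day libraries. The short-end sums were apart by a small margin at 1 day, and lay between 13.4 and 21.6 CPM in IL-1β libraries and between 7.84 and 18.9 CPM in PBS libraries at 20 days. The long-end members summed to 150 ± 25.9 CPM in IL-1β libraries and 149 ± 26.7 CPM in PBS libraries at 1 day (SD, n = 3 each).

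**Figure D5:**
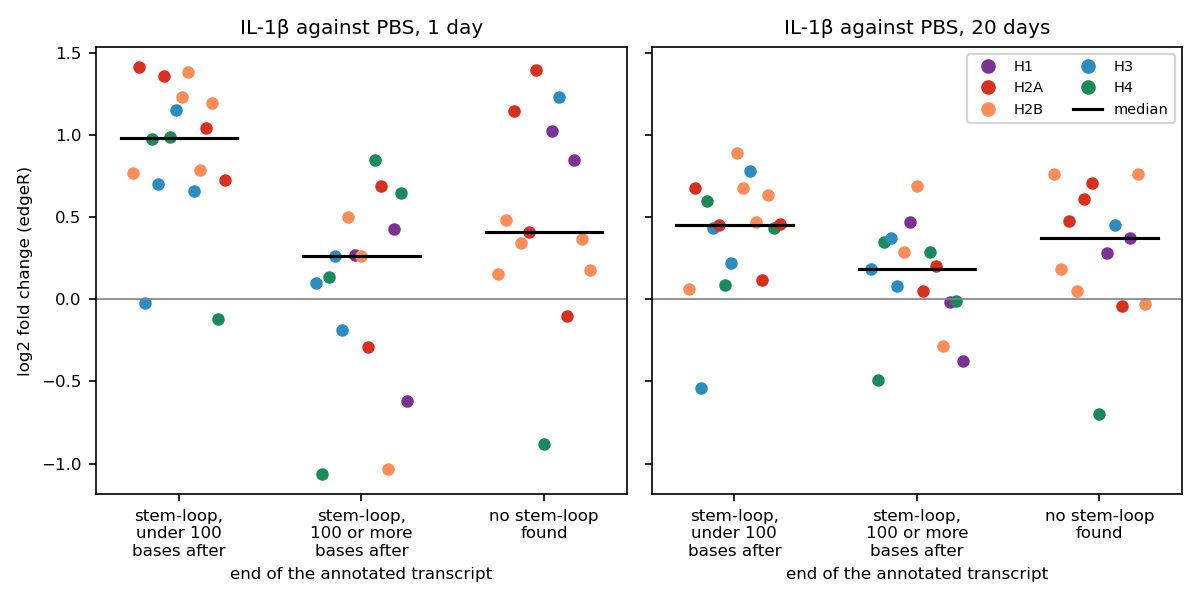
Log2 fold change of IL-1β against PBS for each of the 44 members at 1 day (left) and 20 days (right), grouped by the annotated transcript end and coloured by histone type, with a line at the median. The median of the 16 short-end members is 0.98 at 1 day and 0.45 at 20 days, and that of the 15 long-end members is 0.26 and 0.18.

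Genes that make, process and handle histone mRNA and protein were followed beside the members. Over all 15466 genes tested, 2.52% rose and 1.83% fell at 1 day, and 3.94% rose and 3.52% fell at 20 days. Of 20 genes for transcription and processing of histone mRNA, 2 rose and 1 fell at 1 day and none passed at 20 days. Slbp, whose product binds the stem-loops printed above, averaged 292 ± 22.9 CPM in IL-1β libraries and 215 ± 3.51 CPM in PBS libraries at 1 day (SD, n = 3 each), with a log2 fold change of 0.44 (adjusted p = 0.0424, edgeR). Ccne1, which encodes cyclin E1 of the kinase that activates NPAT, averaged 29.2 ± 0.906 CPM in IL-1β libraries and 13.6 ± 2.86 CPM in PBS libraries at 1 day (SD, n = 3 each; adjusted p = 0.0342, edgeR). Zcchc6, which encodes a uridylyltransferase, averaged 159 ± 19.1 CPM in IL-1β libraries and 210 ± 29.9 CPM in PBS libraries at 1 day (SD, n = 3 each; adjusted p = 0.0401, edgeR). Npat, the coactivator of histone gene transcription, had a log2 fold change of 0.10 at 1 day (adjusted p = 0.86, edgeR) and 0.02 at 20 days. The median of this list was 0.20 at 1 day and -0.01 at 20 days.

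Of 20 histone chaperone genes, 5 rose at 1 day and 1 fell at 20 days, with medians of 0.29 and -0.03. The share called was 25% at 1 day, against 4.35% of all genes, and 5% at 20 days, below the 7.46% of all genes. Chaf1a, a subunit of the assembly factor CAF-1, averaged 177 ± 16.5 CPM in IL-1β libraries and 117 ± 15.9 CPM in PBS libraries at 1 day (SD, n = 3 each; adjusted p = 0.00529, edgeR). Asf1b and Nasp, chaperones of H3 and H4, also rose at 1 day, by 0.81 and 0.60 on the log2 scale. At 20 days the called gene was Ipo4, an importin that carries H3 and H4, at 89.1 ± 6.65 CPM in IL-1β libraries and 149 ± 16.5 CPM in PBS libraries (SD, n = 4 each; adjusted p = 0.000451, edgeR).

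Of 11 histone genes expressed outside S phase as well, 5 rose at 1 day and 2 at 20 days, with medians of 0.42 and 0.16. These are 45.5% and 18.2% of the list, where 2.52% and 3.94% of all genes rose. H2afz and H2afx, which encode H2A variants, rose by 0.66 and 0.67 on the log2 scale at 1 day. Cenpa, the centromeric H3 variant, averaged 189 ± 5.74 CPM in IL-1β libraries and 109 ± 9.84 CPM in PBS libraries at 1 day (SD, n = 3 each; adjusted p = 0.000293, edgeR). At 20 days Cenpa averaged 159 ± 18.9 CPM in IL-1β libraries and 99.2 ± 9.35 CPM in PBS libraries (SD, n = 4 each; adjusted p = 0.000103, edgeR). H1f0, a linker histone found in differentiated and resting cells, averaged 383 ± 23.1 CPM in IL-1β libraries and 288 ± 12.4 CPM in PBS libraries at 20 days (SD, n = 4 each; adjusted p = 0.00313, edgeR).

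Cell cycle genes were followed as well. Of 30 S-phase genes, 17 rose at 1 day and 1 rose at 20 days, with medians of 0.62 and -0.10. The 17 are 56.7% of that list and the 1 is 3.33%. Over all genes 2.52% rose at 1 day and 3.94% at 20 days. The 1-day median of the histone members, 0.57, was close to that of the S-phase genes over all libraries, and the lists were not tested against each other. Within naming sets, the 1-day S-phase medians were 0.40 in 10k and 0.77 in E060216, against 0.56 and 0.55 for the histone members. At 20 days the histone members' median was 0.32, opposite in sign to that of the S-phase genes. Rrm2, Tk1 and Rrm1, which supply nucleotides for replication, had the smallest p at 1 day, with log2 fold changes of 0.98, 0.98 and 0.79. In the interaction, 8 of the 30 S-phase genes passed, all with a lower effect at 20 days, where 0.989% of all genes did. Of 20 G2/M genes, 20 rose at 1 day and 14 rose at 20 days, with medians of 0.89 and 0.45. The 20-day medians of the S-phase list were 0.22 in E061316 and -0.32 in the untagged set, the same naming sets between which the histone members' median differed.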

How the data were processed

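The authors deposited a table of raw counts per gene symbol for 14 libraries. No normalisation is recorded for it. Per the labels' protocols, RNA was pre-amplified with SMARTer Ultra Low chemistry, which does not mark strand. Per the submitters' processing notes, which give no roles, the build was GRCm38.p4 and the tools were STAR 2.4.2a, Trimmomatic 0.32, DESeq2 1.12.3, Cuffdiff, HTSeq 0.6.1 and Cufflinks 2.0.2. How the counting treated annotation, strand and reads that fit several copies was not given in the sources used here, and members of this family are near-identical in parts.

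Members and lists were chosen with earlier results of these data known. The test was the two-sided quasi-likelihood F-test of edgeR 4.0.16 (R 4.3.3), robust, with TMM factors and filterByExpr (minimum count 10, 15466 genes kept). Benjamini-Hochberg adjustment covered all genes tested, at a threshold of 0.05. All 44 members passed the filter. A single fit of all 14 libraries had terms for naming set and for IL-1β at each duration, with 8 residual degrees of freedom. Standard errors are the log2 fold change over the root of F and are approximate. A count of 3 equals 0.102 to 0.139 CPM. Pairs of replicates differed by a chi-square per degree of freedom of 10.7 to 74.4, so none was a repeat of another. The script was tested on simulated data.

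The lists are genes of histone mRNA transcription and processing, histone chaperones, replication-independent histone genes, S-phase genes, G2/M genes, sort markers, neutrophil markers and lineage markers (at 20 days 2 of 5 tested lineage markers and 1 of 9 tested neutrophil markers rose, and at 1 day 1 lineage marker rose). Members given library by library are those called and, per type, the 2 with the highest mean CPM, plus 20-day values of Hist1h2bj and Hist1h2bk, chosen after their values were seen. From the other lists, up to 3 called genes with the smallest p per duration may be named, plus Slbp and Npat. Alternatives were fits without the naming set term, with a replicate block, with other scaling factors, without the filter, within 1 duration, with DESeq2 1.42.0 and with each library left out.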

Additional observations from a re-analysis of the deposited data

Results flagged for a closer look

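In groups of 4, a library's distance from its nearest neighbour was compared with the group's range by Dixon's test, whose critical value for 4 samples is 0.829. Of 88 groups tested (44 genes in both 20-day groups), 4 were past it, and chance passes about 1 in 20 groups. Hist1h2bc was lowest in IL-1β 20-day replicate 3 at 20.2 CPM, with the next library at 24.9 CPM, in the library that carried the neutrophil transcripts. Hist2h4 was lowest in IL-1β 20-day replicate 2 at 0.36 CPM, with the next library at 1.1 CPM. Hist1h2ag was lowest in PBS 20-day replicate 1 at 0.132 CPM, with the next library at 0.612 CPM. Hist1h3a was highest in PBS 20-day replicate 4 at 1.44 CPM, with the next library at 0.706 CPM. None of these 4 genes passed the test at 20 days.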

How the results depend on the processing

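At 1 day, 1 member was called higher and 2 lower. No member was called either way without the naming set term, where Hist1h1c had an adjusted p of 0.298 and Hist1h2bg of 0.171. With upper-quartile factors 0 were called higher. Within the 1-day libraries alone 3 were called higher, where 38 members passed the filter. DESeq2 called 6 higher at 1 day, and 2 higher and 1 lower at 20 days. Without both 10k libraries, chosen after seeing the data, 1 was called lower, Hist1h2bg, and Hist1h2ae was called higher (adjusted p = 0.0378, edgeR). Hist1h1c and Hist1h4i were not called in that fit. Leaving out 1 library gave 0 to 4 called higher and 0 to 2 lower at 1 day. The count of 4 came without PBS 20-day replicate 4. At 20 days it gave 0 to 1 lower, the 1 being Hist1h1c without IL-1β replicate 1 (adjusted p = 0.0464, edgeR). The members' median ran from 0.47 to 0.64 at 1 day and from 0.20 to 0.47 at 20 days over these fits, lowest at 20 days without IL-1β replicate 2, and was 0.036 in the untagged set alone. The cause was not tested. No result changed sign while called.

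With a replicate block in place of the naming set, 0 members were called higher at 1 day, and Hist1h4i had an adjusted p of 0.0899, while Hist1h1c and Hist1h2bg were still called lower. Same-numbered libraries correlated by 0.0683, 0.286 and 0.426 at 1 day and by 0.0443, 0.317, 0.146 and 0.092 at 20 days. With so few libraries per group, these values cannot settle whether the numbers pair the samples. Not every library correlated best with its own number. Over all genes the 1-day count of calls was 672, and was 383 with the block, 290 without the naming set term and 1406 with DESeq2.

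Of the single-gene values, 2708 kept direction and side of the threshold, 18 became called and 23 lost their call. With 32 of 44 members under 5 CPM, counting error limits most single genes.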
